A study of Equus caballus with 34 samples.

Results

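CYP17A1 and INSL3, 2 of the 12013 genes named on the array, were followed in the 2 layers of the growing horse follicle by every non-control probe that the array's annotation assigns to either gene, by gene name or by description. That gave 4 of the 43603 non-control probes, 2 for CYP17A1 and 2 for INSL3. The samples were dominant follicles from the ovary of Equus caballus, divided into theca wall (TW) and granulosa cells (GC). Follicles were preovulatory (PO), late dominant (LD) or early dominant (ED). There were 5 arrays in each of the GC ED, GC LD, GC PO, TW ED and TW PO groups and 9 arrays in TW LD, 34 arrays in all, with 1 sample labelled with Cy3 on each. The sources used here do not give breed, age, hormone treatment or the timing of the stages, or say whether granulosa and theca samples came from the same follicles. The design text calls the samples biological replicates and gives 5 per group, a number that TW LD exceeds. All 9 TW LD arrays were used as separate samples, because no label marks any of them as extra. Whether some are repeats of the same follicle was not tested. If some are, the errors and p-values of comparisons with TW LD may be too small. The theca wall is a piece of tissue and not a purified cell type, so fewer cells of a type and less RNA per cell cannot be told apart in any value below.

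In the ovary, androgens are made by the steroidogenic cells of the theca interna and are passed to granulosa cells, which convert them to oestrogens. CYP17A1, a cytochrome P450 of the endoplasmic reticulum, carries out the 17-alpha-hydroxylase and 17,20-lyase reactions that turn pregnenolone or progesterone into androgen precursors, and it draws electrons from the reductase POR and is helped in the lyase step by cytochrome b5 (CYB5A). INSL3, a peptide hormone of the insulin and relaxin family first known from Leydig cells of the testis, is made in the ovary by theca cells and signals through the receptor RXFP2. Both genes serve as markers of steroidogenic theca cells.

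The probes are shown because the readings of the 2 genes depend on them. Each is 60 bases long. For CYP17A1 the capitals mark the 40 bases that both probes share.
CYP17A1, A_69_P000736, 5 spots on each array: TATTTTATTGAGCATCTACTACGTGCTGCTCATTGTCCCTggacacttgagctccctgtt
CYP17A1, A_69_P000737, 1 spot on each array: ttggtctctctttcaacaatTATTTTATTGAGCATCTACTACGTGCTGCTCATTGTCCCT
For INSL3 the capitals in the first probe mark 4 copies in a row of the triplet CCA, and the second probe has no such run.
INSL3, A_69_P004611, 1 spot on each array: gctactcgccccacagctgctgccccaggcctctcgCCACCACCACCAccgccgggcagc
INSL3, A_69_P002196, 1 spot on each array: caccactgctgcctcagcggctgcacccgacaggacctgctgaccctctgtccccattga
The array annotation places the CYP17A1 probes at chr1:26732703-26732762 and chr1:26732683-26732742. The sources used here name neither the genome build of these positions nor the exon or untranslated region they fall in. The INSL3 probes carry no position in the annotation and are described there as a Leydig cell-specific insulin-like peptide. The first INSL3 probe, called the brighter probe below, is 75% G and C, a content reached by 0.0505% of the probes on the array. The second, called the dimmer probe, is 65.0% G and C, reached by 0.204% of the probes. The CYP17A1 probes are 45% and 38.3% G and C, and the median over all probes is 43.3%. No other probe on the array shared a run of 16 bases with any of the 4.

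Levels are given as log2 of the processed signal relative to the 75th percentile of all non-control spots on the same array, so a level of 0 equals that percentile. All 4 probes were well above background on every array. The 75th percentile itself lay between 784.9 and 2062 signal units. The arrays lay on 10 slides. Only slides 2 and 8 held both layers, each with 1 array of TW LD beside 1 array of each GC stage, so layer and slide cannot be told apart over most of the series. Tests are limma's moderated test fitted across all probes that passed the filter, with Benjamini-Hochberg adjustment over all of them, and a difference is called at an adjusted p under 0.05. The marker lists were chosen with earlier results of these data known, so their counts describe the layers and do not test the labels. All 14 of the 14 theca and stroma markers tested were called higher in TW than in GC over the 3 stages, with a median log2 difference of 4.96. All 13 of the 13 granulosa markers tested were called lower there, with a median of -3.37. The median over all probes was 0.07. By stage, 12, 11 and 7 of the 13 granulosa markers were called lower at ED, LD and PO, with medians of -4.7, -3.8 and -2.3. Of the 14 theca and stroma markers, 13, 13 and 14 were called higher. The share of all probes called was 35.4%, 32% and 49.5%.

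Both genes were higher in the theca wall than in granulosa cells at every stage. No step between stages passed the test for either gene in either layer. The CYP17A1 readings in the theca wall were cut off by the scanner's upper limit. The 5-spot CYP17A1 probe had most of its spots saturated on 15 of the 19 TW arrays, and the single-spot probe was saturated on 17 of 19. Neither probe had a saturated spot on any of the 15 GC arrays. On the TW arrays the raw mean signal of the 5-spot probe reached 65420 units, and on the GC arrays it lay between 1576 and 35250. Levels of CYP17A1 in TW are therefore lower bounds on most arrays, and the TW groups have no readable order among themselves.

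In the theca wall the 5-spot CYP17A1 probe read 5.48, 5.28, 5.69, 5.47 and 5.35 on the 5 TW ED arrays, of which the one at 5.47 was not saturated. The 9 TW LD arrays ran from 5.06 through a median of 5.52 to 6.10, with 1 array not saturated, at 5.13. The TW PO arrays read 5.21, 4.85, 5.38, 5.36 and 5.43, of which the second and the fifth were not flagged as saturated. On the fifth, 23.3% of the pixels were saturated all the same, so that reading may also be cut off. The 3 stages overlapped. The group means were 5.45 ± 0.16 (SD, n = 5) in TW ED, 5.55 ± 0.37 (SD, n = 9) in TW LD and 5.25 ± 0.24 (SD, n = 5) in TW PO. The 4 theca wall readings without a saturation flag lay between 4.85 and 5.47 and the flagged ones between 5.06 and 6.10. The lowest unflagged reading was thus below every flagged one, and the ranges overlapped above it. A saturated reading depends on the scale of its array as well as on the gene, since the raw signal stops at the same limit on every array. The processed signal also departed from the raw signal on slide 7. On TW LD 6, at 6.10, the 5-spot probe read 73880 against a raw mean of 64480 and the single-spot probe 46220 against 65540. On TW ED 4, at 5.47, the 5-spot probe read 50520 against 38510, and the single-spot probe was saturated there.

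In granulosa cells the same probe varied far more from array to array. On the GC ED arrays it read 4.20, 2.87, 2.11, 4.47 and 2.73, on the GC LD arrays 5.26, 1.76, 0.44, 4.90 and 2.21, and on the GC PO arrays 3.48, 0.80, 3.97, 3.00 and 1.56. In GC ED and GC LD the arrays of slides 2 and 8 were the highest of their groups, and the first GC LD array lay above 2 of the 4 unsaturated TW arrays. Its rank among the saturated TW arrays cannot be read. The stages overlapped throughout. The means were 3.28 ± 1.01 (SD, n = 5) in GC ED, 2.91 ± 2.09 (SD, n = 5) in GC LD and 2.56 ± 1.34 (SD, n = 5) in GC PO. The highest GC array was 28.4 times the lowest, which is the range of a signal that no GC array saturated. The single-spot probe followed it closely in GC, with Pearson's r of 0.998 over the 15 arrays. That figure is a description of 2 probes that share 40 bases and the same labelled RNA.

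**Figure D1:**
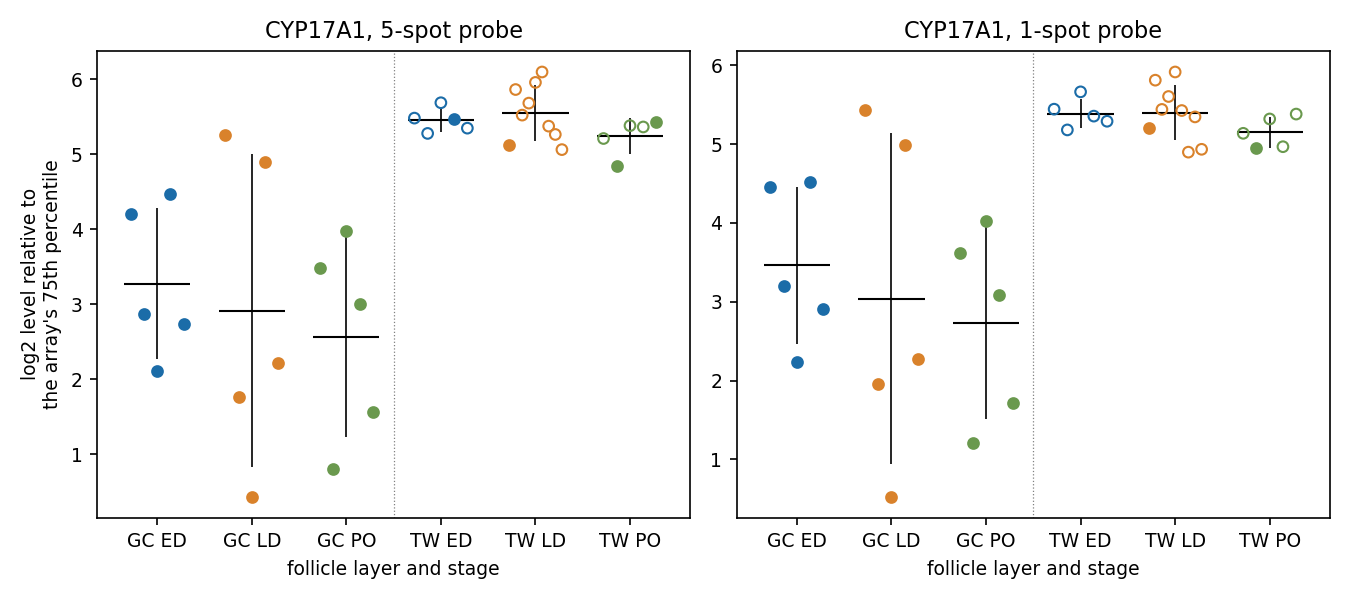
CYP17A1 by array. Each point is 1 array, with its log2 level relative to the array's 75th percentile on the y axis and the layer and stage on the x axis, for the 5-spot probe (left) and the single-spot probe (right). Open points are arrays on which most spots of the probe were flagged as saturated, and filled points are the arrays without that flag. Horizontal bars are group means and vertical bars 1 SD. The 15 GC arrays spread from 0.44 to 5.26 on the 5-spot probe, and the TW arrays crowd between 4.85 and 6.10.

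The difference between layers in CYP17A1 was called at each stage. For the 5-spot probe TW exceeded GC by 2.18 ± 0.63 (SE) on the log2 scale at ED (adjusted p = 0.0072), by 2.64 ± 0.56 at LD (adjusted p = 0.000391) and by 2.68 ± 0.63 at PO (adjusted p = 0.000802). These correspond to 4.52, 6.22 and 6.42 times the GC level. All 5 TW arrays lay above every GC array at ED and at PO, and 7 of 9 did at LD. On the single-spot probe all 5 did at ED and at PO and 4 of 9 at LD. The LD counts are minimums, since 8 of the 9 TW LD arrays were saturated on each probe. Over all probes tested, 35.4% were called between the layers at ED, 32% at LD and 49.5% at PO. The mean difference over the 3 stages was 2.50 ± 0.35, with a 95% interval of 1.78 to 3.21 and an adjusted p of 3.89e-07, in a comparison in which 53.7% of all probes were called. The single-spot probe, saturated on all 5 TW ED arrays, was at least 3.79-fold higher in TW ED than in GC ED (adjusted p = 0.015). That call was lost under median centring (adjusted p = 0.0611) and without the third GC ED array (adjusted p = 0.0543). With saturated spots left out, 2 TW PO arrays remained for the 5-spot probe, and their difference from GC PO was 2.57 (adjusted p = 0.0724). Of these 2, the fifth TW PO array had 23.3% of its pixels saturated. Because the TW readings are cut off, the sizes understate the difference on the saturated arrays.

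Within a slide the layer difference in CYP17A1 can be read on slides 2 and 8 alone, and there only as a lower bound. On slide 2 the TW LD array exceeded the GC LD array by at least 0.60 (log2) on the 5-spot probe and on slide 8 by at least 0.37, with all 5 TW spots saturated on each. These slides carried the highest mean granulosa readings, though at PO the highest array, at 3.97, was on slide 5. The 3 GC arrays of slide 2 averaged 4.32 and those of slide 8 averaged 4.12, against 1.81, 2.17 and 2.17 on slides 3, 5 and 10. When all arrays of slides 2 and 8 were left out, an alternative chosen after the data were seen, the mean layer difference was 3.36 ± 0.27 (adjusted p = 3.73e-10) and the LD difference was 4.08 (adjusted p = 3.44e-07). With slide as a random block the mean difference was 2.47.

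No stage step of CYP17A1 was called. In granulosa cells the 5-spot probe differed by -0.36 ± 0.89 (SE) between LD and ED, by -0.35 ± 0.89 between PO and LD and by -0.71 ± 0.89 between PO and ED, with adjusted p between 0.539 and 0.864. The share of all probes called was 0.00307% for the first of these steps, 16.9% for the second and 44.9% for the third. The 95% interval of the step from ED to PO ran from -2.62 to 1.19, so changes of either sign and of more than 2-fold lie inside it. Leaving out the slides with high readings turned the step from LD to PO to 0.64, with an adjusted p of 0.7. In the theca wall the steps were 0.10 ± 0.18 between LD and ED, -0.30 ± 0.18 between PO and LD and -0.21 ± 0.20 between PO and ED, with adjusted p between 0.231 and 0.839. Saturation limits what these steps can show. In TW 0.0366%, 16.7% and 26.8% of all probes were called in the same 3 steps. The stage change from ED to PO did not differ between the layers past the threshold either, at 0.51 ± 0.89 in TW relative to GC (adjusted p = 0.703), where 29.7% of all probes were called.

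INSL3 was also higher in the theca wall, and its 2 probes gave very different sizes. Neither probe was saturated on any array. On the dimmer probe the TW ED arrays read 0.57, -0.20, 0.98, 0.96 and 1.96. The 9 TW LD arrays ran from -2.25 through a median of 1.20 to 3.43, and the TW PO arrays read -0.31, -0.62, 0.45, -1.11 and -0.17. The granulosa arrays of this probe read -2.50, -2.86, -4.61, -2.48 and -4.35 at ED, -0.20, -3.73, -4.31, -3.0 and -3.86 at LD and -3.33, -4.20, -2.61, -3.89 and -4.25 at PO. The first GC LD array stood well above the other GC arrays and above 4 TW arrays. At ED and at PO the layers did not overlap, and at LD 8 of 9 TW arrays lay above every GC array, the exception being the first TW LD array.

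The brighter INSL3 probe spread over a narrower range. It read 2.11, 2.20, 2.31, 2.84 and 3.11 in TW ED, from 1.94 through a median of 2.91 to 4.22 over the 9 TW LD arrays, and 2.29, 2.38, 2.43, 2.98 and 2.63 in TW PO. In granulosa cells it read 1.46, 1.89, 1.40, 0.36 and 1.22 at ED, 2.55, 1.50, 1.38, 1.25 and 0.97 at LD and 1.33, 1.61, 1.32, 0.80 and 1.35 at PO. The layers did not overlap at ED or PO, and at LD the first GC LD array, at 2.55, lay above 3 of the 9 TW arrays. The highest and lowest TW LD arrays, the fifth and the first, were the same on both probes.

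**Figure D2:**
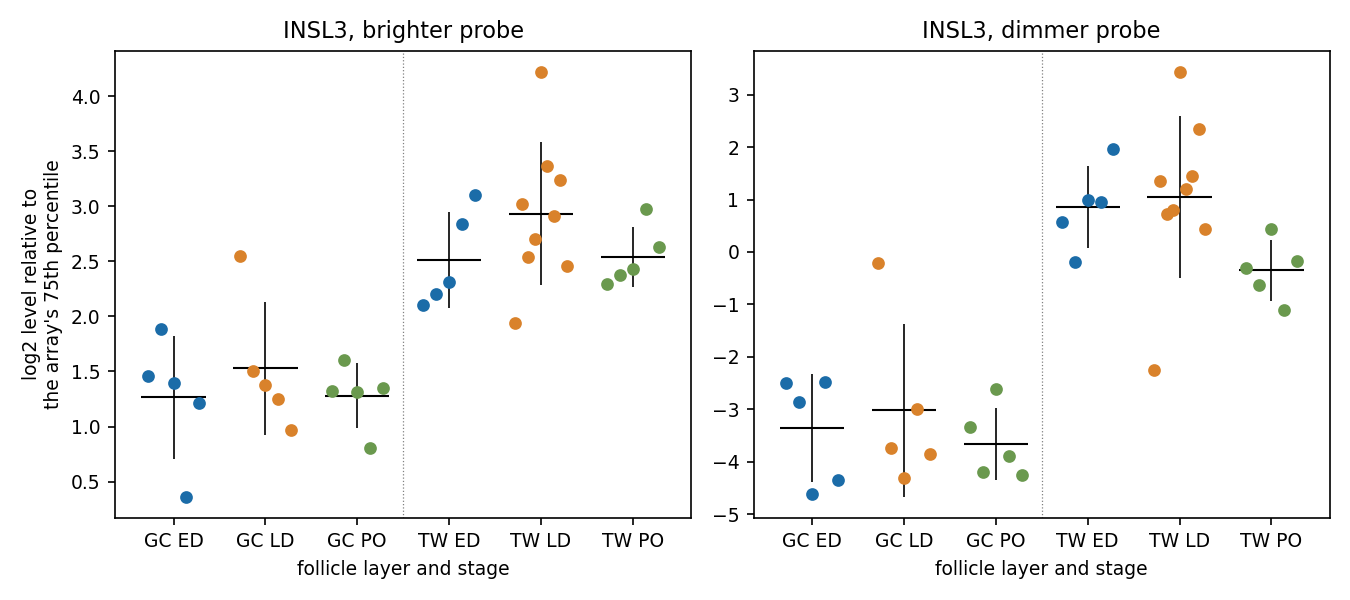
INSL3 by array. Each point is 1 array, with its log2 level relative to the array's 75th percentile on the y axis, for the brighter probe (left) and the dimmer probe (right), by layer and stage, and the 2 panels have different scales. Horizontal bars are group means and vertical bars 1 SD. GC and TW arrays lie about 1.31 apart on the brighter probe and 3.86 apart on the dimmer one, and 1 GC LD array stands above the rest on both.

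The mean TW minus GC difference over the stages was 3.86 ± 0.40 (SE) on the dimmer probe, which is 14.6 times the GC level (95% interval of the log2 difference 3.04 to 4.69, adjusted p = 1.2e-09). It was 1.31 ± 0.18 on the brighter probe, which is 2.47 times (95% interval 0.94 to 1.67, adjusted p = 3.05e-07). The 2 intervals do not overlap. By stage the dimmer probe gave 4.21 at ED, 4.07 at LD and 3.31 at PO, and the brighter one 1.25, 1.40 and 1.26, all 6 called (adjusted p between 7.44e-06 and 0.00296). Within slide 2 the TW LD array exceeded the GC LD array by 1.56 on the dimmer probe and by 0.47 on the brighter one. Within slide 8 it did so by 5.35 and by 1.99. Without the arrays of slides 2 and 8 the mean differences were 4.31 and 1.24.

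The size on the brighter probe also depended on the scaling. Centring each array on its median lowered the TW levels relative to the GC levels of every probe, and the median difference over all probes moved from 0.07 to -0.52 (TW minus GC, mean over stages). The calls moved with it, from 11028 probes higher and 8600 lower in TW to 6301 higher and 19564 lower. Under that scaling the brighter INSL3 probe differed by 0.74 at ED (adjusted p = 0.0593) and by 0.48 at PO (adjusted p = 0.211). The dimmer INSL3 probe and the 5-spot CYP17A1 probe were called higher in TW at every stage under each of the 5 scalings. Over the 19 TW arrays the 2 INSL3 probes correlated at Pearson's r of 0.766, with a slope of 0.32 for the brighter on the dimmer. Over the 15 GC arrays r was 0.451 and Spearman's rho 0.114. These are descriptions over arrays that share the labelled RNA of both probes. The brighter probe thus ranked the GC arrays differently from the dimmer probe.

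No stage step of INSL3 was called on either probe. In the theca wall the brighter probe differed by 0.42 ± 0.28 (SE) between LD and ED, by -0.39 ± 0.28 between PO and LD and by 0.03 ± 0.32 between PO and ED (adjusted p between 0.349 and 0.956). The dimmer probe gave 0.20 ± 0.62, -1.41 ± 0.62 and -1.21 ± 0.71 (adjusted p = 0.914, 0.121 and 0.212). Its step from LD to PO had a 95% interval of -2.71 to -0.10, and 0 of 5 PO arrays lay below the whole LD range, because the first TW LD array was lower than all of them. Without that array the step was -1.82 ± 0.45 (adjusted p = 0.00995), and without the fifth TW LD array it was -1.11 (adjusted p = 0.188). Within the 5 slides that held both stages the PO array was below the LD arrays on 4 slides, with differences from -2.43 to 1.95. Between ED and PO it was lower on all 5 slides, by -0.42 to -2.13. With slide as a block the step from LD to PO was -1.02 (adjusted p = 0.289). Markers of other cells moved over the same step: 9 of 11 leukocyte markers and 6 of 11 endothelial markers were called higher in TW PO than in TW LD and none lower, beside 16.7% of all probes, with 7 and 1 of 11 under normexp background correction. The summed level of the 10 leukocyte markers measured on every array ran from 4.92 to 9.54 times the 75th percentile in TW LD and from 8.23 to 27.7 times in TW PO, and that of the 9 endothelial markers from 1.68 to 5.64 and from 4.73 to 7.90 times. Their part in the INSL3 values was not tested.

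In granulosa cells the INSL3 steps were within the spread. The brighter probe differed by 0.26 between LD and ED, by -0.25 between PO and LD and by 0.02 between PO and ED. The dimmer probe differed by 0.34, -0.64 and -0.30, and adjusted p lay between 0.551 and 0.972 over both probes and all 3 steps. The interaction of layer with the change from ED to PO was 0.01 ± 0.46 on the brighter probe and -0.91 ± 1.02 on the dimmer one (adjusted p = 0.987 and 0.533).

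**Figure D3:**
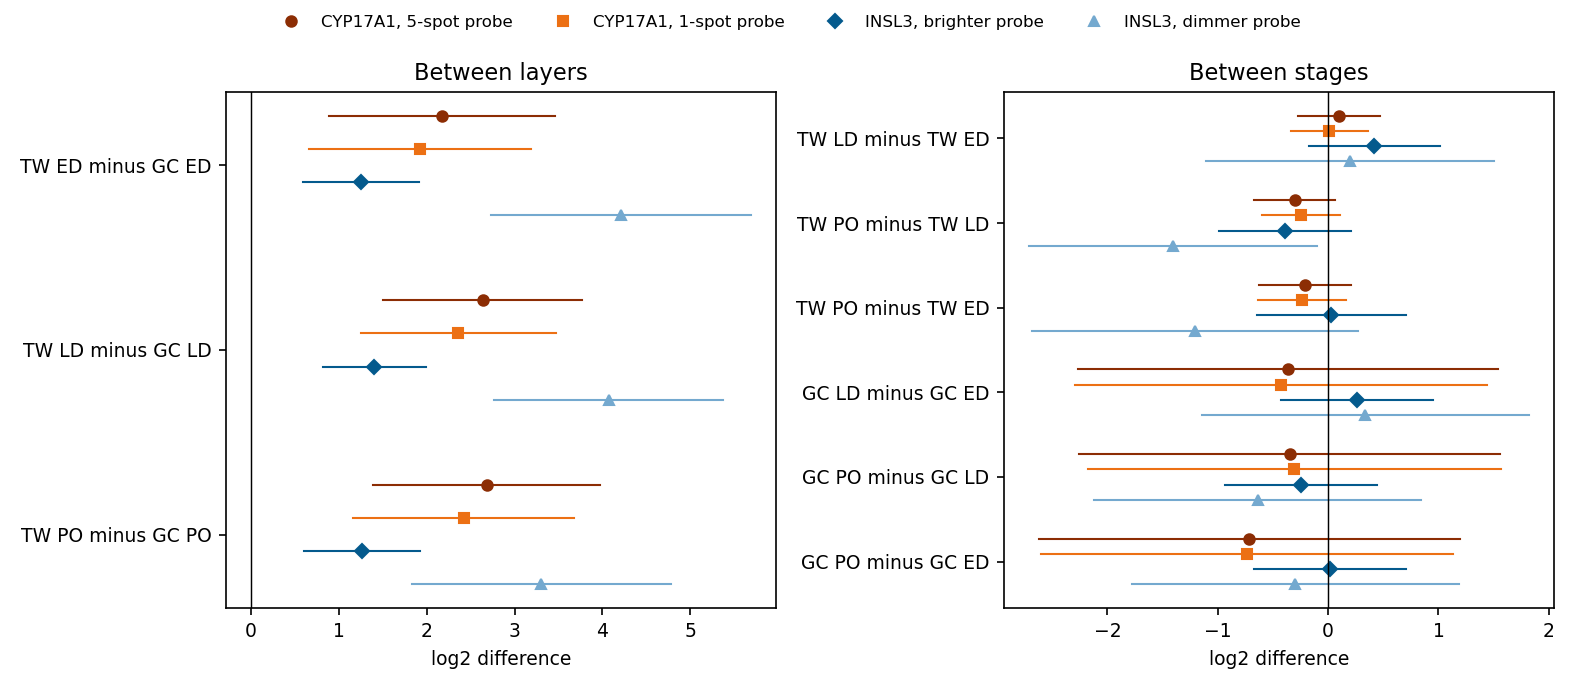
Differences between layers (left) and between stages (right) for the 4 probes. Points are log2 differences from the limma fits, named on the y axis, and lines are 95% intervals. All 12 layer differences lie above 0, the dimmer INSL3 probe being farthest out, and no stage difference was called. Among the stage differences the 95% interval leaves out 0 only for the dimmer INSL3 probe from TW LD to TW PO, at -1.41, and the same probe lies at -1.21 from TW ED to TW PO.

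The order of the 6 group means put the 3 TW groups above the 3 GC groups on all 4 probes. Neighbouring groups were compared by a two-sided exact permutation test over arrays, 20 comparisons in all, adjusted together. On the 5-spot CYP17A1 probe the GC groups followed as GC ED, GC LD and GC PO below the TW groups, whose own order saturation hides. No step between a TW group and its neighbour is given for CYP17A1, since the lowest TW group cannot be told. On the dimmer INSL3 probe the order was TW LD, TW ED, TW PO, GC LD, GC ED and GC PO, with a step from TW PO to GC LD of 2.67 (exact p = 0.0317, adjusted p = 0.127). On the brighter INSL3 probe the order was TW LD, TW PO, TW ED, GC LD, GC PO and GC ED, with a step from TW ED to GC LD of 0.98 (exact p = 0.0317, adjusted p = 0.127). None of the 20 neighbouring pairs passed after adjustment and 5 had an unadjusted exact p under 0.05. The smallest exact p that 5 arrays against 5 can give is 0.00794. The 2 pairs at that value had an adjusted p of 0.0794, so they missed the threshold at the smallest p they could give. The INSL3 pairs with TW LD, 9 arrays against 5, could reach 0.0005. They gave an exact p of 0.792 on the dimmer probe and 0.24 on the brighter one. In no pair does missing the threshold show that neighbours are alike.

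The granulosa readings of CYP17A1 correlated across arrays with other theca genes, and also positively, but without a call, with granulosa markers. The 11 theca and stroma markers with a value on every array, none of them saturated in GC, had mean log2 levels between -2.61 and 0.26 on the GC arrays and between 2.27 and 3.14 on the TW arrays. Their summed level was 5.27 to 49.3 times the 75th percentile in GC and 125.1 to 235.3 times in TW, and between 9 and 11 of the 11 were well above background on each GC array. The array with the highest marker level in GC was the first GC LD array, which was also the highest in CYP17A1 and in both INSL3 probes.

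After each array was centred on its stage, CYP17A1 in GC correlated with the theca marker mean at Pearson's r of 0.735 (permutation within stages, two-sided p = 0.00624, adjusted p = 0.025, n = 15) and Spearman's rho of 0.754 (p = 0.00659, adjusted p = 0.0264). The relation was weaker within slides, at r = 0.587 after centring on stage and slide (adjusted p = 0.0966 by permutation). Without the 2 arrays farthest from the median marker level, GC LD 1 and GC ED 4, r was 0.643 (adjusted p = 0.203 by permutation), so with these 11 markers the call rests on those arrays. The 11 markers were taken after the correlations had been seen, in place of all 14 averaged over the values each array had, because missing values changed which genes the mean held. With all 14 markers r was 0.829 (adjusted p = 0.00388 by permutation), 0.71 after centring on stage and slide (adjusted p = 0.0913 by permutation) and 0.806 without the 2 farthest arrays (adjusted p = 0.044 by permutation). The strength of the relation, and whether its call rests on those arrays, therefore depended on the markers averaged. The dimmer INSL3 probe, added after the data were seen, correlated with CYP17A1 in GC at r = 0.821 (permutation p = 0.00024, adjusted p = 0.00288) and rho = 0.846 (p = 1e-05, the smallest that the 100000 permutations can give, adjusted p = 0.00012). That relation was 0.802 after centring on slide as well and 0.789 without GC LD 3 and GC LD 1. The same probe correlated with the theca marker mean at r = 0.874 (permutation p = 0.00138, adjusted p = 0.00828) and rho = 0.789 (p = 0.00118, adjusted p = 0.00708), and at 0.6 without GC LD 1 and GC ED 4 (adjusted p = 0.162). With all 14 markers these were 0.879 (adjusted p = 0.00388 by permutation) and 0.647 without the 2 farthest arrays (adjusted p = 0.044 by permutation). The brighter INSL3 probe had neither relation called, at r = 0.064 with CYP17A1 (rho = -0.021, permutation p = 0.873 and 0.951) and 0.342 with the theca markers (rho = 0.129, permutation p = 0.307 and 0.667). After centring on stage and slide its r with the theca markers was 0.686 (adjusted p = 0.0614 by permutation). With CYP17A1 it was then 0.392 (adjusted p = 0.295 by permutation). In all, 12 relations were tested. Whether carried-over theca tissue or expression in granulosa cells sets these GC readings was not tested.

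**Figure D4:**
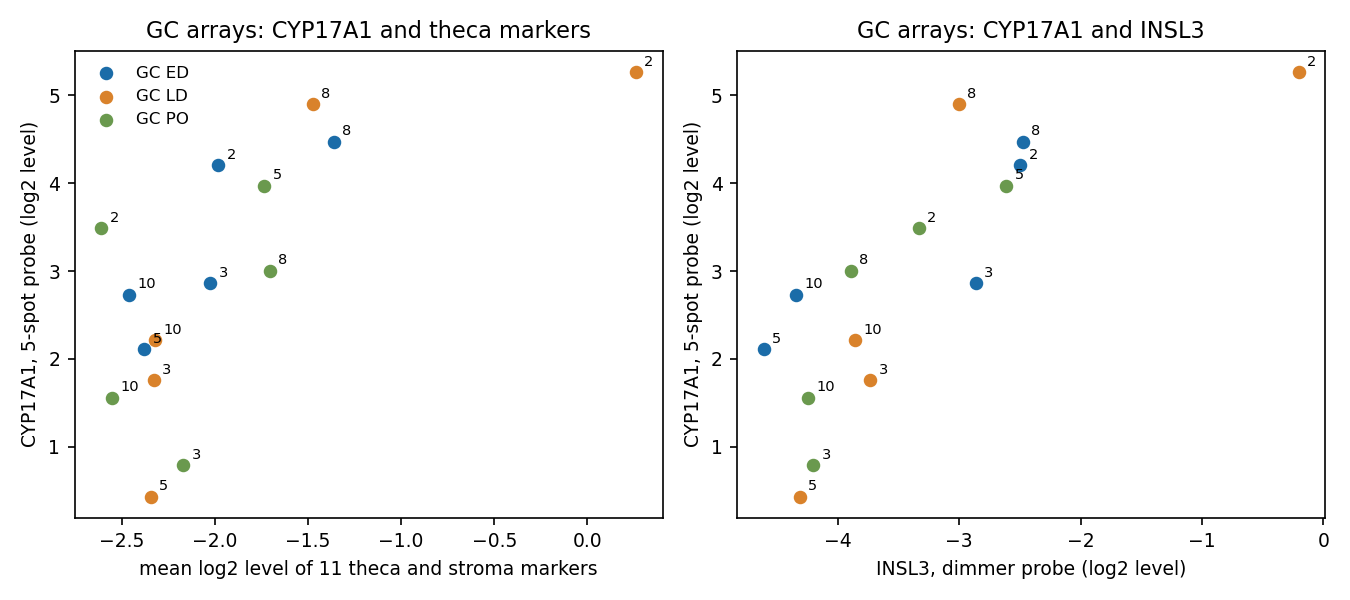
CYP17A1 on the 15 GC arrays. The y axis is the log2 level of the 5-spot CYP17A1 probe. The x axis is the mean log2 level of 11 theca and stroma markers (left) or the log2 level of the dimmer INSL3 probe (right). Colours give the stage and the number beside each point its slide. Arrays of slides 2 and 8 lie high, as does GC PO 3 of slide 5, and the array farthest to the right in both panels is GC LD 1.

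Against the granulosa markers CYP17A1 in GC had r = 0.618 and rho = 0.657 (permutation p = 0.131 and 0.0428, adjusted p = 0.224 and 0.103). After centring on stage and slide r was 0.521, beside 0.587 with the theca markers (adjusted p = 0.0966 by permutation for each). Within slides the 2 relations were thus of similar size. In the theca wall CYP17A1 was not entered because of saturation. Among the 11 markers of each mean, 3 theca markers and 1 granulosa marker were saturated on at least 1 TW array, and 2 granulosa markers on at least 1 GC array, so these means are cut off there as well. The brighter INSL3 probe there had r = 0.011 with the theca marker mean and 0.353 with the granulosa marker mean (rho = 0.053 and 0.437, permutation p = 0.965 and 0.1, n = 19). The dimmer probe had r = -0.468 and 0.327 (rho = -0.495 and 0.4, permutation p = 0.0366 and 0.0602, adjusted p = 0.11 and 0.144). None of the 4 theca wall relations passed after adjustment over the 12.

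The other enzymes of the pathway were split between the layers. Of 22 steroidogenic genes listed, 19 were tested between layers on the probe of each gene chosen by brightness and saturation, and over the 3 stages 6 were called higher in TW and 9 lower, beside 53.7% of all probes called in either direction. Under median centring 3 were higher and 11 lower. The median log2 difference was -0.06, against 0.07 over all probes. STAR, which delivers cholesterol to the inner mitochondrial membrane, was higher in TW by 2.85 ± 0.45 (SE, adjusted p = 2.85e-06) over the 3 stages, but at PO alone the difference was 0.80 (adjusted p = 0.411). CYP11A1, which makes pregnenolone there, was higher by 1.44 ± 0.29 (adjusted p = 8.89e-05). By stage CYP11A1 differed by 1.56 at ED and 2.44 at LD (adjusted p = 0.0184 and 8.84e-05), and by 0.31 at PO (adjusted p = 0.638), which turned to -0.47 under median centring (adjusted p = 0.46). POR and CYB5A, the partners that CYP17A1 works with, were lower in TW. POR differed by -1.90 ± 0.27 (adjusted p = 3.86e-07) and CYB5A by -1.48 ± 0.24 (adjusted p = 4.72e-06), with 1 GC array saturated for POR and 3 for CYB5A. At PO alone POR differed by -1.0 (adjusted p = 0.0846). HSD3B2, which converts pregnenolone to progesterone, was saturated on all 15 GC arrays and was at least 48.5-fold higher in GC ED than in TW ED and at least 11.8-fold higher in GC LD than in TW LD (adjusted p = 5.8e-05 and 0.0025). At PO the bound was 4.28-fold and the difference was not called (adjusted p = 0.0884). HSD3B2 in TW ED ran from -3.18 to 4.80 (SD 3.83), so these folds are between group means and do not hold for every array. CYP19A1, the aromatase that granulosa cells use to make oestrogen, differed by -6.17 ± 0.78 (TW minus GC, adjusted p = 5.46e-08).

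Between TW LD and TW PO, 4 of 18 steroidogenic genes tested were called lower and none higher, in a step in which 16.7% of all probes were called, 3366 higher and 2576 lower. CYP11A1 differed by -0.86 ± 0.28 (adjusted p = 0.0445), CYB5A by -1.23 ± 0.33 (adjusted p = 0.0213), FDXR, the reductase of the mitochondrial P450 chain, by -1.38 ± 0.43 (adjusted p = 0.037) and CYB5B by -1.06 ± 0.28 (adjusted p = 0.0186). The CYP11A1 call was lost under quantile normalization, normexp background correction and the deposited values (adjusted p between 0.0678 and 0.142), and with normexp 1 of the 4 remained. STAR in TW differed by -0.50 ± 0.30 (adjusted p = 0.245). In GC, STAR was higher at PO than at ED by 3.95 ± 1.06 (adjusted p = 0.00782), while POR and CYB5A differed by -2.95 and -2.14 (adjusted p = 0.00134 and 0.00238). For STAR and POR the change from ED to PO differed between layers, by -4.30 and 2.17 in TW relative to GC (adjusted p = 0.00588 and 0.0164).

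Among 35 tested regulators of theca steroidogenesis, 9 were called higher and 3 lower in TW PO than in TW LD, a split that was 6 higher and 7 lower under median centring. Of all probes, 16.7% were called in that step. NR5A1, the nuclear receptor SF-1 that activates CYP17A1 and INSL3 transcription, differed by -1.41 ± 0.40 between LD and PO and by -1.77 ± 0.45 between ED and PO in TW (adjusted p = 0.0236 and 0.0081), and all 5 TW PO arrays lay below every TW ED array. NR4A1, an orphan receptor that acts on steroidogenic promoters, was higher in TW PO than in TW LD by 2.19 ± 0.44 (adjusted p = 0.00662). LHCGR, the receptor through which luteinizing hormone acts on theca cells, differed by -1.11 ± 0.67 over that step (adjusted p = 0.251). GATA4 differed by -0.65 and GATA6 by -0.06 (adjusted p = 0.162 and 0.871). Between the layers NR2F2, a nuclear receptor of theca and stroma cells, was higher in TW by 4.32 ± 0.25 and GATA6 lower, at -2.85 ± 0.21 (adjusted p = 8.71e-13 and 7.64e-13). The NR2F2 probe had usable spots on 4 of 9 TW LD arrays and 1 of 5 TW PO arrays, the rest being outlier spots.

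Hedgehog signals from granulosa cells act on theca cells. Of 9 genes of that pathway tested, 4 were called lower and 1 higher in TW PO than in TW LD, beside 16.7% of all probes. GLI1, its transcriptional read-out, differed by -3.99 ± 0.68 (adjusted p = 0.00448) and PTCH1, the receptor and target, by -1.59 ± 0.40 (adjusted p = 0.0152). With the deposited values 2 of the 9 were called lower and none higher. Of the relaxin family, 6 of 10 listed genes had a probe and 3 were tested. RXFP2, the receptor of INSL3, was well above background on none of the 5 TW ED arrays, on 1 of 9 TW LD arrays and on all 5 TW PO arrays, where it was at least 1.61-fold higher than in TW ED (adjusted p = 0.00219). That call was lost with normexp background correction (adjusted p = 0.965). In GC, RXFP2 was well above background on 1 of 5 ED, 1 of 5 LD and 4 of 5 PO arrays. There too it was called higher at PO than at ED, by 2.49 with dim values included (adjusted p = 0.0307). With normexp the GC call was lost as well (adjusted p = 0.972).

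The genes whose levels followed INSL3 most closely differed by probe. Over the 19 TW arrays the 5 genes with the highest Pearson's r with the brighter probe, among 6838 named genes well above background on all of them, were ERP27, CHCT1, UPK1B, AQP5 and EPM2A, with r between 0.71 and 0.727. With the dimmer probe they were FBXL5, PRDX5, HSD17B8, ERG28 and CYP39A1, with r between 0.783 and 0.847. Over all 34 arrays and 5671 genes the brighter probe was followed by CHCT1, AQP7, OGN, LRRK1 and TFF3 (r between 0.842 and 0.883) and the dimmer one by CCK, UNC45B, CYP39A1, IL32 and AQP7 (r between 0.913 and 0.937). The values over all arrays were not centred on layer. Over the 15 GC arrays and 6670 genes, CYP17A1 was followed by CCK, BGN, MFSD14A, ENPP6 and GALNT12, with r between 0.811 and 0.903. CCK was also first for the dimmer INSL3 probe over the GC arrays, with r = 0.899. These are descriptions of the closest genes among those ranked, with no test.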

How the data were processed

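The arrays were single-colour Agilent arrays. Per the labels' protocols, 500 ng of RNA with an integrity number above 7.0 was copied from oligo(dT) priming, transcribed into Cy3-labelled antisense RNA and hybridized, so probes far from the 3' end can read lower. The authors deposited spot intensity values from Agilent Feature Extraction (version 9.1, per the submitters' processing notes), with flags for saturation, outliers and background, and a value table. The headers of the scanner output name a version other than 9.1. The deposited table was checked to be log2 mean signal without background subtraction, quantile normalized over all spots (r of 0.999995 with that calculation, largest difference 0.0329, median of every column 7.29). Its scale and centring are thus known.

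From the processed intensity, log2 values were taken relative to the 75th percentile of the 43803 non-control spots of an array. Outlier and control spots were dropped. Saturated spots stayed in, and the spots of a probe were averaged. Probes well above background on at least 5 arrays of a fit were tested: 35516 for the 19 TW arrays, 32599 for the 15 GC arrays and 36564 for all 34. Stage steps were fitted within a layer, and layer differences and the interaction over all arrays, with limma 3.58.1 in R 4.3.3 (lmFit, eBayes, Benjamini-Hochberg adjustment). P-values measure the spread between samples called biological replicates. The number of arrays limits the precision. The limma code was tested on simulated data. Slides were read from the array barcodes, which spread the groups less evenly than the design text says.

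The 4 probes of the 2 genes were all used. For other genes the lead probe was the one with the highest mean over all arrays among those saturated on at most 3, and otherwise the one with the fewest saturated arrays. 21888 probes were given a symbol from the array annotation and RefSeq names. Genes named are list members called between TW stages or fixed partners of the pathway, with 5 genes per likeness set. A probe saturated, or not well above background, on all arrays of a group gives "at least" folds from group means of log2 values, with dim values raised to the lowest signal well above background on that array. The members and all gene lists were chosen with earlier results of these data known. Alternatives were quantile, median, normexp (offset 50) and deposited scaling, slide as a block, other filters, spot rules, probes, and leaving out arrays.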

Additional observations from a re-analysis of the deposited data

How the results depend on the processing

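The layer differences of CYP17A1 and INSL3 were above 0 in every alternative tried. Calls were lost for the brighter INSL3 probe under median centring at ED (0.74) and PO (0.48), and for CYP17A1 at PO with saturated spots left out (2.57). No stage step or interaction of the lead probes was called in any alternative, and small differences changed sign. On the dimmer INSL3 probe the step from TW LD to TW PO was called when the first TW LD array was left out. CYP17A1 in TW from ED to LD was -0.029 under quantile normalization. INSL3 in TW from ED to PO was -0.20 under median centring, -0.007 with the deposited values and -1.21 on the dimmer probe. INSL3 in GC from ED to PO was -0.16 under quantile normalization, -0.15 with the deposited values and -0.30 on the dimmer probe. The INSL3 interaction was -0.26 under median centring, -0.065 with normexp, -0.01 without slide 7 and -0.91 on the dimmer probe. Without slides 2 and 8, CYP17A1 in GC was 0.64 from LD to PO, and INSL3 was -0.22 from ED to LD, 0.14 from LD to PO and -0.077 from ED to PO.

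Leaving out single arrays moved CYP17A1 in GC between -0.95 and 0.26 from ED to LD and between -0.97 and 0.24 from LD to PO. It moved INSL3 between -0.079 and 0.18 in TW from ED to PO, between -0.39 and 0.007 in GC from LD to PO, between -0.21 and 0.17 in GC from ED to PO, and between -0.14 and 0.24 in the interaction. The cause of these changes was not tested.

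CYP17A1 with the theca markers in GC had r = 0.676 with the deposited values, 0.587 centred on stage and slide and 0.643 without the 2 farthest arrays, none called. With all list markers in place of those with a value on every array, a choice made after the data were seen, it was 0.829 and called, and 0.71 and not called once centred on stage and slide. The brighter INSL3 probe in GC had r = -0.123 with theca markers and -0.394 with CYP17A1 without the 2 farthest arrays, and 0.236 with granulosa markers centred on stage and slide, or -0.333 with theca and 0.25 with granulosa markers when all were averaged. Centred on stage and slide, its r with theca markers in GC was 0.686, or 0.662 with all list markers, neither called. In TW its r with theca markers was -0.12 under quantile normalization, -0.227 with the deposited values, -0.013 without centring, -0.026 centred on stage and slide and -0.163 without the 2 farthest arrays. Saturation limits most theca wall values of CYP17A1.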
